A study of Mus musculus with 6 samples.

Results

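Tenascins, thrombospondins, osteopontin, periostin, SPARC and fibronectin were followed in the sciatic nerve through 9 genes, *Tnc*, *Tnxb*, *Thbs1*, *Thbs2*, *Thbs4*, *Spp1*, *Postn*, *Sparc* and *Fn1*, chosen by their symbols as 9 of the 59485 genes of the expression table. RNA was sequenced from sciatic nerves of 3 control animals and 3 mutant animals at postnatal day 4 (P4), and each animal gave 1 library. The mutants carry *Ht-PA-Cre*, 2 floxed *Adar1* alleles (*Adar1fl/fl*; the gene is *Adar* in the table) and R26R, a YFP tracer. *HtPA-Cre* uses the promoter of human tissue plasminogen to drive Cre, which then acts in neural crest (NC) cells, so that Schwann cells (SCs) and other NC derivatives lose ADAR1 while cells of other origins in the nerve, such as endothelial cells and macrophages, keep it. The controls are labelled wild-type and, following the methods, are Cre-free *Adar1fl/fl* or *Adar1fl/+* animals with R26R. All 9 genes were measured in every library, with between 583 reads (*Spp1*) and 289937 reads (*Sparc*) counted on a gene in a library.

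Matricellular proteins are secreted into the extracellular matrix, where they bind structural matrix, growth factors and cell-surface receptors and modulate how cells attach, rather than forming fibres themselves. Fibronectin is counted with them here although it also forms fibrils. In peripheral nerve, tenascin-C, thrombospondins, osteopontin and fibronectin are known to be made by SCs or by fibroblasts of the nerve sheaths, and several of them change after nerve injury. Because whole nerve was sequenced, fewer cells of a type and less RNA per cell cannot be told apart in any value given below.

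A value below is a normalised read count, the reads counted on the gene divided by the library's DESeq2 size factor. The log2 fold change (mutant-labelled minus control-labelled) was fitted with limma on log2(value + 1). The threshold asks for a 2-fold change or more together with an unadjusted p no higher than 0.05. Adjusted p-values are Benjamini-Hochberg values of that fit over all 25802 genes tested, those with a mean of at least 10 normalised reads in either genotype, and all 9 genes were among them. *Adar* itself had control-labelled values of 1602, 2066 and 1133 and mutant-labelled values of 11768, 9311 and 9773 (replicates 1, 2 and 3), the opposite of what a deletion in the labels would give. With a single value per gene, the deleted segment cannot be looked at on its own, and the libraries are called control-labelled and mutant-labelled. The 5 SC markers summed to 17975 to 28453 normalised reads in the mutant-labelled libraries and to 68952 to 71577 in the control-labelled ones.

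Of the 9 genes, 4 were past the threshold and higher in the mutant-labelled libraries (*Tnc*, *Thbs2*, *Spp1* and *Thbs1*) and 0 were past it and lower, where 24.2% of all tested genes were past it, 13.9% higher and 10.4% lower. At an adjusted p at or under 0.05 without a limit on size, the same 4 genes were higher and *Sparc* was lower, against 19.0% higher and 16.0% lower (35.0% in either direction) of all tested genes. The values of these 5 genes did not overlap between genotypes, and those of *Tnxb*, *Thbs4*, *Postn* and *Fn1* did. Non-overlapping values were found for 49.2% of all tested genes (25.9% with all mutant-labelled values above and 23.3% with all below). The median log2 fold change was 0.28 over the 9 genes and 0.03 over all tested genes.

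The promoters of *Tnc*, *Thbs2* and *Spp1*, which rose, and that of *Sparc*, which was lower, are given here so that the start of each transcript can be seen beside its change. The RefSeq promoter sequences used here (GRCm38.p6) were matched by symbol for 7 of the 9 genes; *Thbs1* and *Fn1* are named only. Each sequence runs 5′ to 3′ on the strand of the gene, from 250 bases before to 50 bases after the start, and the entry whose start matches the gene's start in the table was taken.
*Tnc* (chr4:64046966-64047265, minus strand): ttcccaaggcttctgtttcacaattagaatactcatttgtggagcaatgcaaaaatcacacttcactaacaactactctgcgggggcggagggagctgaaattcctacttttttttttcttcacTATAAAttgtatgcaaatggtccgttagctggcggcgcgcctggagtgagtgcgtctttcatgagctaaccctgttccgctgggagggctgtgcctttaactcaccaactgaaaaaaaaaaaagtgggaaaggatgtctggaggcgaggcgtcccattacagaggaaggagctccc
*Thbs2* (chr17:14694213-14694512, minus strand): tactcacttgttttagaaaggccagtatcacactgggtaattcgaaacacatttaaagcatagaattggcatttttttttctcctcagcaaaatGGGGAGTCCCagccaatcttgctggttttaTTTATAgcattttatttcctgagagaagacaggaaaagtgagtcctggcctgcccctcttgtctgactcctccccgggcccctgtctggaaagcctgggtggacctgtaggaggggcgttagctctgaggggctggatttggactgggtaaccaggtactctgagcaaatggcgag
*Spp1* (chr5:104434861-104435160, plus strand): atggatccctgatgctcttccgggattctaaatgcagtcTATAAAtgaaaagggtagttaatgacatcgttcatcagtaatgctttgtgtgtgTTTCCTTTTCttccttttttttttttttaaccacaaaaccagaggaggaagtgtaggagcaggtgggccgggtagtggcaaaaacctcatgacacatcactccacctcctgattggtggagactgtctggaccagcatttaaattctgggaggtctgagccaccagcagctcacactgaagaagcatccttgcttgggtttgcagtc
*Sparc* (chr11:55420031-55420330, minus strand): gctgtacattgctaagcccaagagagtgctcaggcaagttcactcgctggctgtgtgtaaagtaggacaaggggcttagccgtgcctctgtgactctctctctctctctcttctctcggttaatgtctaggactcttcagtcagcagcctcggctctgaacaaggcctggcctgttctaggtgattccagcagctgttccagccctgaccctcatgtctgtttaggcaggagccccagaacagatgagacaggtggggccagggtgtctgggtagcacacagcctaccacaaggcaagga

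Capitals mark matches to 7 short motifs searched on both strands, with overlaps allowed, and distances are counted to the first base of a match. These are the TATA box (TATAAA), the interferon-stimulated response element (GAAANNGAAA), the gamma-activated site (TTCNNNGAA), the AP-1 site (TGANTCA), the TEAD site (GGAATG), an NF-kB site (GGGANNNNCC) and the CArG box. *Spp1* had TATAAA 211 bases before the start and an interferon-stimulated response element, on the other strand, 157 bases before it. *Thbs2* had the NF-kB letters 156 bases and TATAAA 126 bases before the start, both on the other strand. *Tnc* had TATAAA 126 bases before the start, and the *Sparc* window held none of the 7. A further entry of *Tnc*, with another start, had TATAAA 205 bases before that start. *Spp1* and *Postn* also have a further entry with another start, in which none of the 7 was found. Among the genes not printed, *Tnxb* had an AP-1 match 55 bases before its start, *Thbs4* had TEAD matches 197 and 192 bases before, and *Postn* had NF-kB letters 129 bases and TATAAA 26 bases before. The same search found these motifs in other promoters too: of 32851 promoter windows of 300 bases, 13.6% held TATAAA, 3.44% the interferon-stimulated response element, 8.3% the gamma-activated site, 7.81% the AP-1 site, 14.7% the TEAD site, 20.7% the NF-kB letters and 1.63% the CArG box. A match is a description of the sequence and was not tested as a binding site.

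**Figure D1:**
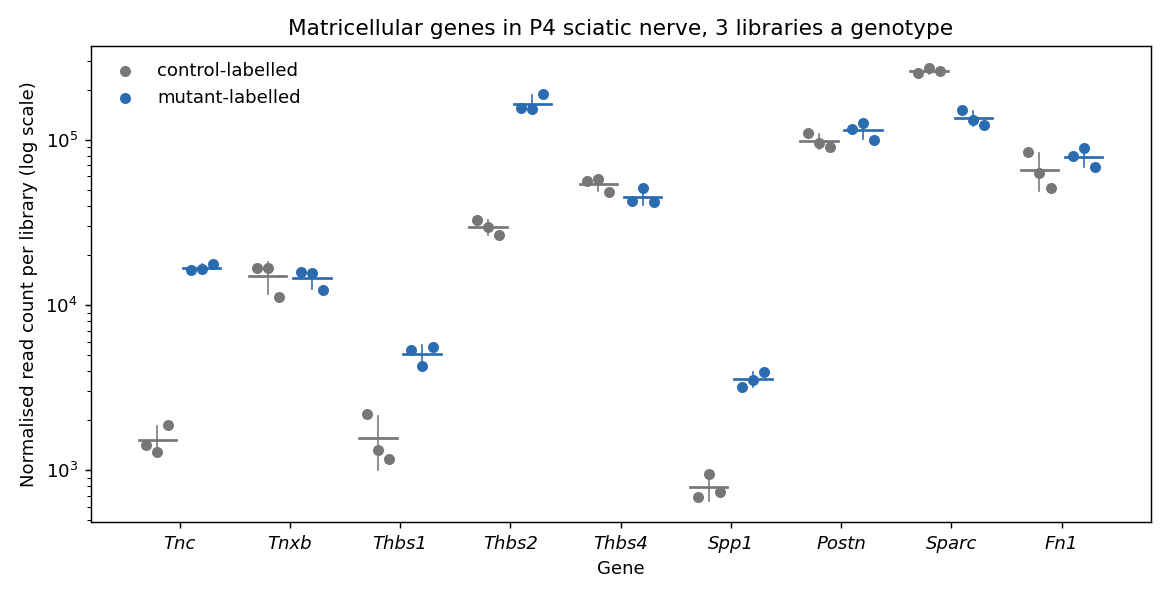
Normalised read count per library (log axis) of the 9 matricellular genes in control-labelled (grey) and mutant-labelled (blue) libraries; each point is a library, horizontal lines are means of 3 and vertical lines SDs. The mutant-labelled points of *Tnc*, *Thbs1*, *Thbs2* and *Spp1* all sit above the control-labelled points, those of *Sparc* all sit below, and those of the other 4 genes overlap.

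The tenascins are large glycoproteins whose best known member, tenascin-C, loosens cell adhesion to fibronectin and is abundant in developing and injured tissue. *Tnc* (GSMG0027906, mm10 chromosome 4, 63959785 to 64047015, minus strand) had control-labelled values of 1421, 1287 and 1882 normalised reads (replicates 1, 2 and 3) and mutant-labelled values of 16238, 16454 and 17756. Every mutant-labelled value was several times the highest control-labelled value, and the mutant-labelled libraries lay close to each other. The mean rose from 1530.0 ± 312 to 16816 ± 821 (SD, n = 3 each), and the log2 fold change was 3.48 (standard error, SE, 0.14; 95% interval of the fold 8.89 to 13.9, limma adjusted p = 2.78e-06). This was the largest change of the 9 genes.

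*Tnxb* encodes tenascin-X, which binds fibrillar collagen and is a tenascin of mature connective tissue. *Tnxb* (GSMG0016560, chromosome 17, 34670535 to 34719815, plus strand) had control-labelled values of 16854, 16670 and 11222 normalised reads (replicates 1, 2 and 3) and mutant-labelled values of 15821, 15606 and 12248. The genotypes overlapped over nearly the whole range, with replicate 3 the lowest library of each genotype. Its log2 fold change was -0.02 (SE 0.17, adjusted p = 0.94), with a 95% interval of the fold from 0.749 to 1.30, and the sign of this value depended on the scaling (0.14 with libraries rescaled to the same total). Within a library, where no scaling enters, the ratio of *Tnc* to *Tnxb* reads was 0.0843, 0.0772 and 0.168 (control-labelled) and 1.03, 1.05 and 1.45 (mutant-labelled). The remaining tenascins were at very low reads: *Tnn* (tenascin-W) was tested and gave 8, 0 and 24 reads in control-labelled libraries and 24, 0 and 16 in mutant-labelled libraries, and *Tnr* (tenascin-R) had at most 14 reads in a library and was not tested.

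Thrombospondins fall into a trimeric group, *Thbs1* and *Thbs2*, whose type 1 repeats restrain blood vessel growth and bind the receptor CD36, and a pentameric group, *Thbs3*, *Thbs4* and *Comp*, which lacks these repeats. Of the 5 thrombospondins, 2 were past the threshold and higher, both of them trimeric, where 13.9% of all tested genes were higher. The pentameric genes did not pass it, but *Thbs3* was higher by limma adjusted p (0.0334), with all mutant-labelled values above the control-labelled ones. A difference between the trimeric and pentameric groups was not tested. *Thbs2* (GSMG0017137, chromosome 17, 14665500 to 14694262, minus strand) had control-labelled values of 32785, 29522 and 26360.5 normalised reads (replicates 1, 2 and 3) and mutant-labelled values of 154959, 153612 and 189265. The lowest mutant-labelled value was far above the highest control-labelled value. The mean rose from 29556 ± 3212 to 165945 ± 20207 (log2 fold change 2.49, SE 0.12, 95% interval of the fold 4.63 to 6.80, adjusted p = 5.47e-06).

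*Thbs1* encodes a protein that is also an activator of latent TGF-beta. *Thbs1* (GSMG0021600, chromosome 2, 118111876 to 118127132, plus strand) had control-labelled values of 2194, 1318 and 1163 normalised reads (replicates 1, 2 and 3) and mutant-labelled values of 5361, 4242 and 5547. The control-labelled libraries spread more, relative to their mean, than those of *Thbs2*, with control-labelled replicate 1 the highest, but all mutant-labelled libraries were above it. The mean rose from 1559 ± 556 to 5050.0 ± 706 (log2 fold change 1.74, SE 0.23, 95% interval of the fold 2.33 to 4.80, adjusted p = 0.000654).

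*Thbs4* encodes a thrombospondin of tendon, muscle and nervous tissue. *Thbs4* (GSMG0010948, chromosome 13, 92751586 to 92794818, minus strand) had control-labelled values of 56123, 57617 and 48063 normalised reads (replicates 1, 2 and 3) and mutant-labelled values of 42753, 50999 and 41950. Mutant-labelled replicate 2 lay above control-labelled replicate 3, so the genotypes overlapped. The log2 fold change was -0.25 (SE 0.11, adjusted p = 0.116), with a 95% interval of the fold from 0.700 to 1.003. *Thbs3* had a log2 fold change of 0.52 (SE 0.16, adjusted p = 0.0334), short of 2-fold, and *Comp* one of 0.77 (SE 0.78, adjusted p = 0.476) at 57.6 ± 47.4 normalised reads in control-labelled libraries and 104 ± 74.5 in mutant-labelled libraries.

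The balance among the thrombospondins could also be read inside each library. The ratio of *Thbs2* to *Thbs4* reads was 0.584, 0.512 and 0.548 in control-labelled libraries and 3.62, 3.01 and 4.51 in mutant-labelled libraries, and that of *Thbs2* to *Thbs1* was 14.9, 22.4 and 22.7 in control-labelled libraries and 28.9, 36.2 and 34.1 in mutant-labelled libraries. No control-labelled ratio reached a mutant-labelled ratio. Such ratios follow how the 2 genes differ in change and do not compare their levels, since the genes differ in length. For each of the 7 ratios computed between pairs of the 9 genes, the exact two-sided permutation p was 0.1, the smallest that 3 animals against 3 allow, and 0.1 after adjustment over the 7. Each pair holds a gene whose own values did not overlap between genotypes, so these p-values add no separate support.

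Osteopontin, encoded by *Spp1*, is a secreted phosphoprotein made by macrophages, osteoblasts and SCs, which binds integrins through an RGD sequence and also CD44. *Spp1* (GSMG0029510, chromosome 5, 104435111 to 104441053, plus strand) had control-labelled values of 687, 949 and 739 normalised reads (replicates 1, 2 and 3) and mutant-labelled values of 3176, 3533 and 3922. All mutant-labelled libraries were above all control-labelled ones. The mean rose from 792 ± 138 to 3544 ± 373 (log2 fold change 2.17, SE 0.15, 95% interval of the fold 3.55 to 5.70, adjusted p = 2.61e-05). Its relatives among the bone and tooth phosphoproteins were scarce in nerve: *Dmp1* was past the threshold at 23.3 ± 16.4 normalised reads in control-labelled libraries and 54.8 ± 9.36 in mutant-labelled libraries, but with an adjusted p of 0.0897; *Ibsp* had 0, 28 and 342 reads in control-labelled libraries and 0, 0 and 6 in mutant-labelled libraries (adjusted p = 0.200); and *Dspp* and *Mepe* had 0 reads in all 6 libraries.

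SPARC is a calcium- and collagen-binding protein that guides collagen assembly and weakens cell attachment. *Sparc* (GSMG0006689, chromosome 11, 55394159 to 55420080, minus strand) had control-labelled values of 252528, 273961 and 262281 normalised reads (replicates 1, 2 and 3) and mutant-labelled values of 152241, 131160 and 123134. All mutant-labelled libraries were below all control-labelled ones, and the spread within each genotype was small beside the gap. The mean fell from 262923 ± 10731 to 135511 ± 15034 (log2 fold change -0.96, SE 0.11, 95% interval of the fold 0.432 to 0.611, adjusted p = 0.000328). That size is just under 2-fold, so *Sparc* did not meet the threshold here but met it when libraries were rescaled to the same 75th percentile (-1.03) or without mutant-labelled replicate 1 (-1.05). The SPARC family was the group of matricellular genes with the most falls: 5 of its 8 tested genes were past the threshold and lower (*Sparcl1*, *Smoc2*, *Spock1*, *Spock2* and *Spock3*), 0 were higher, and the family median was -1.29, where 10.4% of all tested genes were lower and 13.9% higher. *Sparcl1* (hevin) fell from 48445 ± 3452 to 17769 ± 5267 normalised reads (log2 fold change -1.49, SE 0.19, adjusted p = 0.000544), and *Smoc2* fell from 6009 ± 524 to 1935 ± 304 (-1.64, SE 0.13, adjusted p = 5.8e-05). The 3 testican genes were at under 180 normalised reads on average in either genotype, *Spock2* had an adjusted p of 0.0636, and *Spock1* and *Spock3* overlap other genes on their own strand, whose reads the counting could share. *Fstl1* (0.20, adjusted p = 0.33) and *Smoc1* (-0.72, adjusted p = 0.592) did not pass.

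Periostin and fibronectin were abundant and close to level between genotypes. Periostin, a fasciclin-domain protein, cross-links collagen and is made by fibroblasts and SC precursors. *Postn* (GSMG0024308, chromosome 3, 54361107 to 54391041, plus strand) had control-labelled values of 109538, 95554 and 90019 normalised reads (replicates 1, 2 and 3) and mutant-labelled values of 115815, 126073 and 100187. Mutant-labelled replicate 3 lay within the control-labelled range. The log2 fold change was 0.21 (SE 0.12, adjusted p = 0.207), with a 95% interval of the fold from 0.957 to 1.40. Among the matricellular genes counted here, the other fasciclin-domain gene was *Tgfbi*, with a log2 fold change of -0.00 (SE 0.10, adjusted p = 0.983).

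Fibronectin is the adhesion glycoprotein on which tenascin-C and several integrins act. *Fn1* (GSMG0001727, chromosome 1, 71585473 to 71653234, minus strand) had control-labelled values of 84552, 62586 and 50832 normalised reads (replicates 1, 2 and 3) and mutant-labelled values of 79671, 88726 and 68298. The highest control-labelled library exceeded all but a single mutant-labelled one, so the genotypes overlapped widely. The log2 fold change was 0.28 (SE 0.18, adjusted p = 0.268), with a 95% interval of the fold from 0.909 to 1.62. Beside these level values, the ratio of *Postn* to *Sparc* reads within a library was 0.434, 0.349 and 0.343 in control-labelled libraries and 0.761, 0.961 and 0.814 in mutant-labelled libraries, and the ratio of *Tnc* to *Fn1* was 0.0168, 0.0206 and 0.037 in control-labelled libraries and 0.204, 0.185 and 0.26 in mutant-labelled libraries. None of the 9 genes overlaps another gene on its own strand. *Tnc*, *Tnxb*, *Thbs2*, *Spp1* and *Fn1* overlap genes on the other strand; the libraries were oriented, but the use of strand in the counting is not given in the sources used here.

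**Figure D2:**
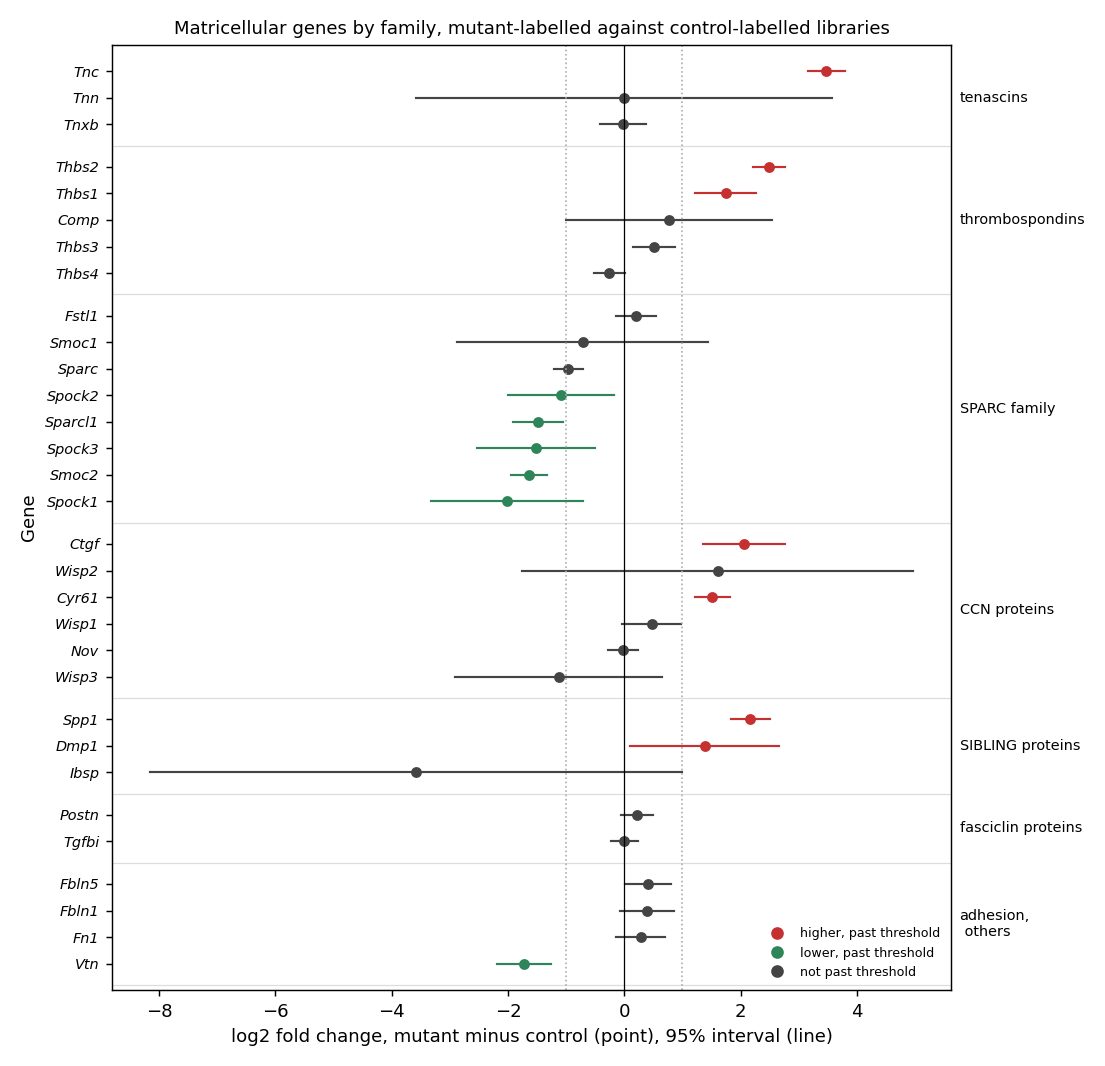
Log2 fold change (mutant-labelled minus control-labelled; point) with its 95% interval (line) of the matricellular genes tested, by family; red and green mark genes past the threshold and dotted lines mark 2-fold. The rises lie in *Tnc*, the trimeric thrombospondins, *Spp1*, *Dmp1*, *Ctgf* and *Cyr61*, and 5 of the 6 falls lie in the SPARC family.

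Beyond the 9 genes, 25 further matricellular genes were counted, of which 22 were tested (*Tnr*, *Dspp* and *Mepe* were not). Of these, 3 were past the threshold and higher, 6 were lower and 13 did not pass, with a median log2 fold change of -0.00, where 13.9% of all tested genes were higher and 10.4% lower. The CCN proteins are cysteine-rich modulators of integrins and growth factors, and 2 of 6 rose (13.9% of all tested genes). *Cyr61* (CCN1) rose from 2037 ± 314 to 5798 ± 447 normalised reads (1.52, SE 0.13, adjusted p = 7.5e-05), and *Ctgf* (CCN2) from 465 ± 164 to 1951 ± 650 (2.06, SE 0.31, adjusted p = 0.00136). *Nov* (CCN3) had a log2 fold change of -0.03 (adjusted p = 0.885), and *Wisp1*, *Wisp2*, *Wisp3*, *Fbln1* and *Fbln5* were tested and did not pass either. *Vtn*, vitronectin, an adhesion glycoprotein bound by integrins, fell from 4247 ± 1122 to 1258 ± 151 (-1.72, SE 0.20, adjusted p = 0.000373).

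The level of each gene was also set against its transcript length, since reads per gene cannot be compared between genes. The length taken was that of the longest coding transcript in GENCODE M21 (basic set), from 1507 bases for *Spp1* to 12209 for *Tnxb*; the authors counted reads on constitutive regions whose length is not used here, so that the order is approximate. In the control-labelled libraries, *Sparc* led with 114314 ± 4666 normalised reads per kb and made up 64.6% of the 9 genes' sum per kb. Then came *Postn* (30693 ± 3139 per kb), *Thbs4* (16865 ± 1607), *Fn1* (7936 ± 2058), *Thbs2* (5014 ± 545), *Tnxb* (1222 ± 262), *Spp1* (525 ± 91.9), *Thbs1* (267 ± 95.1) and *Tnc* (215 ± 43.9). Only the last neighbours, *Thbs1* and *Tnc*, overlapped between libraries. In the mutant-labelled libraries, *Sparc* was still first, at 58918 ± 6536 per kb and 38.5% of the sum, and *Postn* second, at 35577 ± 4067. *Thbs2* moved from rank 5 to rank 3, at 28150.2 ± 3428 per kb, and its range over libraries overlapped that of *Postn*. *Tnc* moved from rank 9 to rank 6, at 2366 ± 116 per kb, where it overlapped *Spp1* (2351 ± 248). *Thbs2* made up 2.83% of the sum in control-labelled libraries and 18.4% in mutant-labelled libraries. The sum per kb over the 9 genes was 179663, 181880 and 169609 in control-labelled libraries and 158169, 155702 and 145286 in mutant-labelled libraries.

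**Figure D3:**
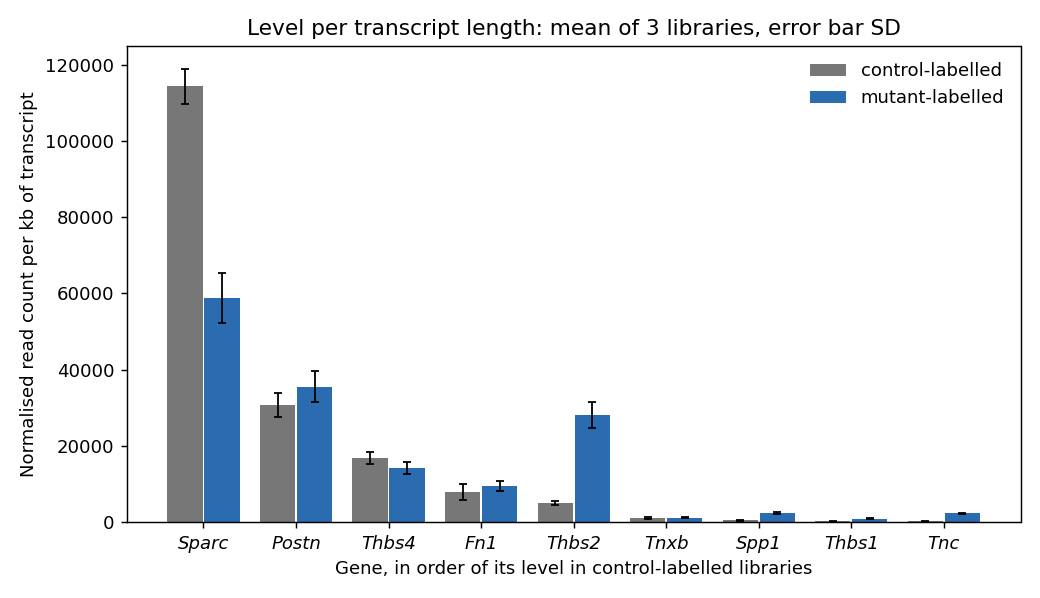
Normalised reads per kb of transcript (axis from 0) of the 9 genes in control-labelled (grey) and mutant-labelled (blue) libraries, in the order of the control-labelled level; bars are means of 3 libraries and error bars SDs. *Sparc* is the highest in both, and *Thbs2* goes from rank 5 to rank 3.

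Receptors were taken from a list of 26 genes for integrin subunits, CD44, CD47, CD36, syndecans and others known to bind these proteins, all of them tested. In all, 7 of 26 were past the threshold and higher and 2 were lower, with a median log2 fold change of 0.48, where 13.9% of all tested genes were higher and 10.4% lower. *Cd44*, which binds osteopontin, rose from 1359 ± 193 to 5448 ± 695 normalised reads (2.004, SE 0.14, adjusted p = 3e-05). *Cd47*, a receptor of thrombospondin-1, rose from 1977 to 5615 (1.501, SE 0.11, adjusted p = 3.8e-05), and *Sdc4*, a syndecan that works with integrins on fibronectin, from 8312 to 23722 (1.505, SE 0.13, adjusted p = 8.7e-05). *Itga3* rose (1.56, adjusted p = 0.0297). *Itgb6*, also counted among the 7, had a mean of 5.17 normalised reads in control-labelled libraries and 68.1 in mutant-labelled libraries and so entered the test through the mutant-labelled libraries alone. The remaining 2 risers, named after their values were seen, were *Itga9*, whose integrin binds tenascin-C and osteopontin (406 to 1028; 1.38, adjusted p = 0.00184), and *Itga5*, the alpha chain of the main fibronectin receptor (5240.4 to 12075; 1.21, adjusted p = 0.000174). *Itgb1*, the beta chain that pairs with both, had a log2 fold change of -0.04 (SE 0.08, adjusted p = 0.712). *Cd36*, named above for the trimeric thrombospondins, was at -0.07 (SE 0.26, adjusted p = 0.850). *Itgb3*, another integrin subunit, was lower by adjusted p but short of 2-fold (-0.95, SE 0.13, adjusted p = 0.000832). *Cd47*, *Itga9* and *Itgb6* overlap other genes on their own strand, whose reads the counting could share. The falls were *Stab1*, a scavenger receptor of macrophages and sinusoidal endothelium that takes up SPARC (5775 to 2106; -1.46, adjusted p = 0.000759), and *Itga2*, a collagen receptor chain (-1.33, adjusted p = 0.000953).

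**Figure D4:**
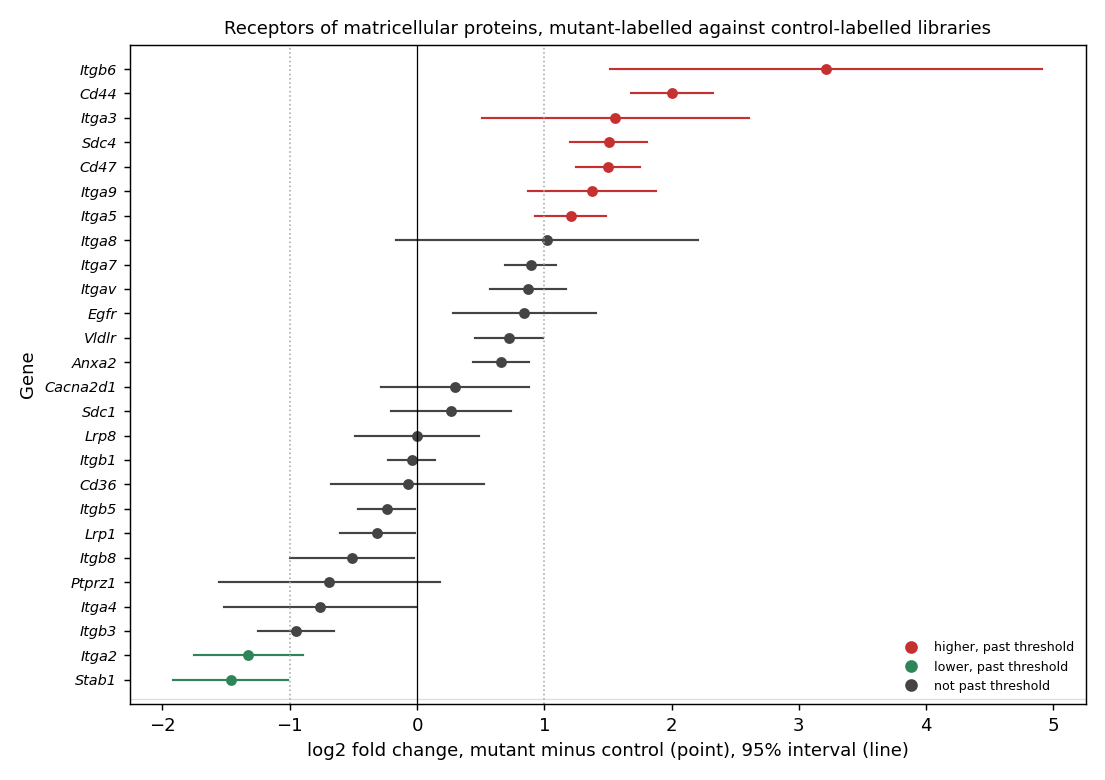
Log2 fold change (mutant-labelled minus control-labelled; point) with its 95% interval (line) of the 26 receptor genes; red and green mark genes past the threshold and dotted lines mark 2-fold. *Cd44*, *Sdc4*, *Cd47* and *Itga5* have narrow intervals above 0, *Itgb6* has a wide interval, and *Itgb1* is at -0.04.

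Among 18 genes for proteases that cleave matricellular proteins or activate those that do, 16 were tested, 10 were past the threshold and higher and 1 was lower, where 13.9% of all tested genes were higher and 10.4% lower. *Mep1a*, *Mmp12*, *Mmp13* and *F2* reached the minimum mean of 10 in mutant-labelled libraries alone and *Plg* in control-labelled libraries alone, so this count is no support for a direction of the list. With a minimum mean of 50 it was 6 higher and 0 lower, and without mutant-labelled replicate 1 it was 5 higher. The 5 with the largest fitted rise were *Mep1a*, *Mmp12*, *Mmp13*, *F2* and *Mmp9*, and all but *Mmp9* rested on few reads in both genotypes. *Mep1a* had 0 reads in every control-labelled library and 12, 44 and 30 in mutant-labelled libraries, which is at least 8.11-fold higher against a floor of 3 reads per library. *Mmp12* had 2, 0 and 0 reads in control-labelled libraries and 22, 8 and 8 in mutant-labelled libraries, *Mmp13* had 6, 0 and 8 and then 56, 24 and 28, and *F2* had 0, 0 and 1 and then 3, 9 and 20. *Mmp9*, a gelatinase, had control-labelled values of 4.44, 48.2 and 63.4 normalised reads and mutant-labelled values of 212, 125 and 129.6 (adjusted p = 0.0491). Such a floor allows for counting error alone, because the libraries carry no molecular identifiers and PCR copies are not separate molecules. *Plg*, the single fall, had 14, 10 and 12 reads in control-labelled libraries and 0, 0 and 4 in mutant-labelled libraries. At higher levels, and named after their values were seen, *Adamts1* (821 ± 186.8 to 3164 ± 353; 1.97, SE 0.18, adjusted p = 0.000106), *Plat* (5908 ± 459 to 13244 ± 1121; 1.16, SE 0.10, adjusted p = 7.8e-05) and *Plau* (425 ± 34.4 to 1033 ± 143; 1.27, SE 0.15, adjusted p = 0.000446) rose; *Plat* and *Plau* encode the plasminogen activators.

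The fibrous matrix with which these proteins interact was listed as 22 collagen, proteoglycan, elastic fibre and cross-linking genes. In that list, 5 of 22 were past the threshold and lower and 1 was higher, where 10.4% of all tested genes were lower and 13.9% higher, and the median log2 fold change was -0.42. The falls were *Hspg2* (perlecan; -2.07, adjusted p = 7.9e-05), *Col3a1* (-1.22, adjusted p = 0.000705), *Fmod* (-1.21, adjusted p = 0.0231), *Col1a1* (-1.10, adjusted p = 0.00311) and *Col1a2* (-1.01, adjusted p = 0.00157). *Vcan* rose (1.77, adjusted p = 0.0158), at 62.9 normalised reads in control-labelled libraries and 221 in mutant-labelled libraries. Without mutant-labelled replicate 3, only 2 genes of the list were past the threshold and lower.

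Markers of the cell types of the nerve and its surroundings moved between the same libraries. Of all tested genes, 13.9% were past the threshold and higher and 10.4% lower, and the marker counts stand beside these shares. Of 5 SC markers, 3 were past the threshold and lower, with the sums given above. Of 6 macrophage markers, 3 were lower (*Csf1r*, *Mrc1* and *Cx3cr1*) and *Ptprc* was higher, with sums of 10479 to 13662 in control-labelled libraries and 4456 to 6123 in mutant-labelled libraries. None of 6 endoneurial fibroblast markers was past the threshold (51684 to 72140 in control-labelled libraries, 52436 to 65312 in mutant-labelled libraries), nor any of 5 endothelial markers (13584 to 20113 and 18320.1 to 25772) or of 5 pericyte and smooth muscle markers (22280.1 to 41994 and 25932 to 65141). Epineurial fibroblast markers summed to 5350.2 to 9813 in control-labelled libraries and 8485 to 9049 in mutant-labelled libraries, with 1 of 5 higher and 1 lower, and perineurial markers to 18530 to 21961 and 15516 to 18145, with 1 of 6 lower. Skeletal muscle markers were higher for 5 of 6, with sums of 6110 to 32211 in control-labelled libraries and 40330 to 306302 in mutant-labelled libraries, the highest in mutant-labelled replicate 3. Cartilage and bone markers summed to 9540 to 12392 in control-labelled libraries, nearly all of it *Col2a1*, and to 168 to 632 in mutant-labelled libraries; *Col2a1* was the 1 of 5 that was lower. Tendon markers summed to 492 to 853 in control-labelled libraries and 636 to 1058 in mutant-labelled libraries (1 of 5 higher, 1 lower). Adipocyte markers summed to 5282 to 11216 and 3177 to 23201 (0 of 4). T cell markers summed to 82.4 to 175 and 251 to 340 (2 of 4 tested higher), with *Cd3d* and *Cd8a* at 0 in control-labelled libraries. The 2 higher were *Cd8a* and *Cd4*. *Cd8a* reached the minimum mean of 10 in mutant-labelled libraries alone, and *Cd4* overlapped between genotypes (limma adjusted p = 0.0542). This count is therefore no support for a direction of the T cell list. No list but that of T cells was at 0 throughout for a defining marker in either labelled group. The part of these shifts in the matricellular values was not tested. Without mutant-labelled replicate 3, the library with the most muscle transcripts, the log2 fold changes were 3.44 for *Tnc*, 1.67 for *Thbs1*, 2.39 for *Thbs2*, 2.09 for *Spp1* and -0.89 for *Sparc*. Mutant-labelled replicates 1 and 2, with muscle sums of 94055 and 40330, were still above every control-labelled library.

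The genes whose pattern over the 6 libraries was most like each member were found by the root mean square difference of log2 values, each gene centred on its own mean, among 12833 genes with a mean of at least 100. *Cnr1* (0.13) and *Tnfrsf12a* (0.14) were closest to *Tnc*, *Angptl4* (0.07) and *2610307P16Rik* (0.11) to *Thbs2*, *Ap3b2* (0.08) and *Dcp2* (0.09) to *Thbs1*, and *Tnfsf13b* (0.10) and *Igf2os* (0.11) to *Spp1*. *Zfp523* (0.03) and *Krba1* (0.03) were closest to *Sparc*. For the genes whose genotypes overlapped, these were *Gm16386* (0.06) and *Zfp13* (0.07) for *Tnxb*, *Fam126b* (0.05) and *Sgpp1* (0.06) for *Thbs4*, *Zfp451* (0.04) and *Nucb2* (0.04) for *Postn*, and *Kcnj8* (0.06) and *Podxl* (0.07) for *Fn1*. All points of these comparisons come from the same 6 libraries.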

How the data were processed

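Poly-A RNA of sciatic nerve was sequenced by the authors as oriented libraries, mapped with STAR 2.4.0 on mm10 and counted on constitutive regions of FAST DB genes. The deposited table holds a signal for each gene in each library, the read counts that the authors divided by DESeq2 size factors, for 59485 genes, and no column of other samples was found. Dividing by what 1 read is worth in a library gave whole numbers for 100% of the values (tolerance 0.01), and these recovered reads entered edgeR and DESeq2. Libraries had 50938349 to 78250094 reads on genes, and the 9 genes took 0.763 to 1.04% of them. Groups and replicate numbers come from the labels, and each library is a separate animal.

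log2(value + 1) was compared by limma (lmFit, eBayes with trend) for genes with a mean of at least 10 in either genotype. The genes named are the 9, every other matricellular gene counted here that was past the threshold, the 5 largest rises and 5 largest falls past it of each other list, and the 2 genes most like each of the 9; any further gene named was chosen after its values were seen. A single further matricellular gene was left out of the list and all its counts and is not reported here. These genes and lists were chosen with earlier results of these data known. The fits were tested on simulated data. Alternatives were other pseudocounts, filters, scalings, call rules and tools, a replicate block and leaving out each library. Software: DESeq2 1.42.0, edgeR 4.0.16 and limma 3.58.1 (R 4.3.3), with figures from matplotlib 3.10.9 (Python 3.11.15, numpy 2.4.6).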

Additional observations from a re-analysis of the deposited data

How the results depend on the processing

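The results were recomputed under 12 alternatives and without each of the 6 libraries. *Tnc* (3.36 to 3.64), *Thbs2* (2.39 to 2.65), *Spp1* (2.07 to 2.33) and *Thbs1* (1.56 to 2.02) were past the threshold in all 18, and *Thbs4*, *Postn*, *Fn1* and *Tnxb* in none. The adjusted p of *Postn* ranged from 0.0417 to 0.467 and that of *Fn1* from 0.0463 to 0.674. *Tnxb* changed sign to 0.14 with libraries rescaled to the same total, and ranged from -0.21 to 0.10 with a library left out, above 0 without control-labelled replicate 1 (0.08), control-labelled replicate 2 (0.07) or mutant-labelled replicate 3 (0.10). Rescaling to the same total moved the median of all genes to 0.19, from 0.03. *Sparc* reached 2-fold with the same 75th percentile (-1.03), was called at -0.96 by adjusted p alone, and ranged from -1.05 (without mutant-labelled replicate 1) to -0.89 with a library left out, so that 1 of the 9 genes counted as lower in those settings.

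By adjusted p alone, the receptor list had 12 of 26 higher, the protease list 3 of 16 lower, and the fibrous matrix list 4 of 22 higher and 11 of 22 lower, where 19.0% of all tested genes were higher and 16.0% lower. With a minimum mean of 50, 6 proteases were higher and 0 lower; edgeR called 0 proteases lower; and with the same total 3 fibrous matrix genes were lower. With a library left out, the receptors lower numbered up to 4 (without control-labelled replicate 3), the proteases higher as few as 5 and the fibrous matrix genes higher up to 2 (both without mutant-labelled replicate 1), and the fibrous matrix genes lower between 2 (without mutant-labelled replicate 3) and 7 (without mutant-labelled replicate 1). The causes were not tested.

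Same-numbered control-labelled and mutant-labelled libraries did not deviate together (correlations of -0.06, -0.06 and 0.01). Not every library correlated best with its own number. With 3 libraries a genotype, these correlations cannot decide whether the replicate numbers pair the animals, and the labels do not say. With a replicate block, *Tnc* was at 3.48 (adjusted p = 1.84e-05) and *Sparc* at -0.96 (adjusted p = 0.00281), 4 of the 9 genes were past the threshold and higher and 0 lower, and 6149 genes in all were past it, against 6251. Depth does not limit the 9 genes, which have at least 583 reads in every library; it limits *Tnn*, *Tnr*, *Dmp1*, *Mep1a*, *Mmp12*, *Mmp13*, *F2* and *Plg*.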
